A study of Mus musculus with 22 samples.

Results

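Arterial smooth muscle cells of the gut, taken from stomach and intestine, were set against those of the urinary organs, kidney and bladder. The comparison used 13 of the 22 libraries of the series: 3 from stomach, 4 from intestine, 3 from kidney and 3 from bladder. They were chosen by their tissue labels alone, and each tissue had the same weight, so that the mean of stomach and intestine was set against the mean of kidney and bladder. A gene is called shared below when it passed the test in the whole contrast and in each of the 4 gut and urinary tissue pairs, in the same direction, and differed by 1 or more on the log2 scale in every pair. The mice of all 4 tissues had the genotype Cspg4-Dre/Acta2-CreERT/R26-GFP, in which the Cspg4 and Acta2 loci drive a pair of recombinases and the Rosa26 locus carries a green fluorescent reporter. All received tamoxifen, at 0.75 mg per 10 g body weight on 3 days, and the fluorescent cells were sorted by flow cytometry. Libraries were made from up to 10 ng of RNA with SMART-Seq v4, a kit that copies whole transcripts from scarce RNA. Age and sex are not in the labels, nor is it said whether each library is a different animal. The p-values below therefore reflect only how far these samples vary, and that variation may be technical.

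Smooth muscle of the arterial wall contracts in response to nerves, hormones and local mediators, and the receptors it carries differ between vascular beds. Its cells descend from local mesenchyme, which in the embryo carries a regional code of transcription factors. Hox genes mark position along the body axis, with low-numbered paralogues switched on further forward than high-numbered paralogues. Foregut and midgut mesenchyme is known for factors such as Barx1, Nkx2-3 and Foxf1, and kidney and bladder mesenchyme for posterior Hox genes, Gata3 and Tbx18. Acta2, which encodes smooth muscle actin, is also active in visceral muscle and myofibroblasts, and Cspg4, which encodes the proteoglycan NG2, in pericytes and some glia.

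Deposited values are whole numbers scaled per library, called signal here. The gut libraries held 8517752 to 12708505 rebuilt reads and the urinary libraries 4389009 to 12475524, so 1 read was worth 0.422 to 0.665 signal in gut and 0.456 to 1.341 in urinary organs. Smooth muscle markers were present in every library: the 11 arterial smooth muscle markers summed to 17671 to 22062 in gut and 12269 to 45731 in urinary libraries. Stomach and intestine libraries also held epithelial transcripts and kidney libraries nephron transcripts, described at the end. Cspg4 was at 482 to 622 in stomach and 1038 to 1512 in intestine, against 65 to 2542 in kidney and 15 to 800 in bladder. Kidney 2 and bladder 3 had the lowest values, 65 and 15, and bladder 3 also held the lowest arterial smooth muscle sum and the highest urothelial sum, 8388. Results were therefore also computed without kidney 2 and bladder 3.

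In limma on log2(signal + 1) with Benjamini-Hochberg adjusted p under 0.05, 3712 of 16079 tested genes (23.1%) were higher in gut and 2386 (14.8%) were lower. The shared rule kept 621 genes higher (3.86%) and 152 lower (0.945%) in gut. Most genes of either kind separated the libraries completely: in 571 of the 621 and 142 of the 152, no gut library overlapped a urinary library. Over all tested genes, such separation was seen with gut above for 965 (6.00%) and with gut below for 410 (2.55%). The shared rule used these same libraries, so the separation is partly built into it and adds no independent support. Higher shared genes were mostly genes close to silent in urinary organs, with a urinary mean signal under 10 for 354, and their median log2 fold change was 4.27. Lower shared genes had a median of -2.86, and 57 had a gut mean under 10. Without kidney 2 and bladder 3, 680 genes were shared higher and 196 shared lower. Fold changes on this scale understate the change of low genes.

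**Figure D1:**
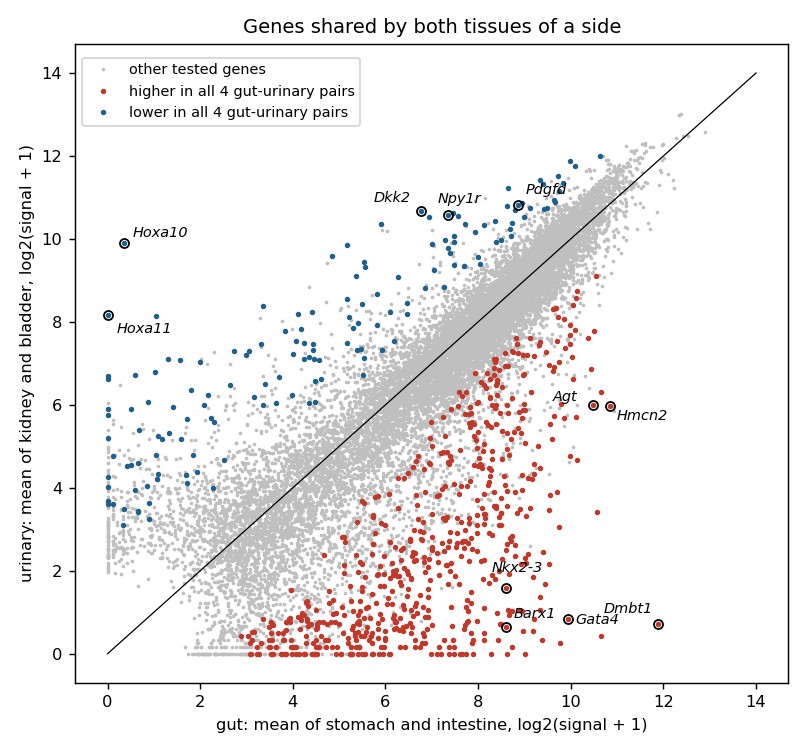
Each point is a tested gene, placed by its mean log2(signal + 1) in gut (horizontal axis, mean of stomach and intestine) and in urinary organs (vertical axis, mean of kidney and bladder), with the diagonal as the line of equal level. The 621 genes higher in all 4 pairs reach down to a urinary level near 0, and the 152 lower genes include both silent genes such as Hoxa10 and Hoxa11 and genes such as Npy1r and Pdgfd that keep a clear level in gut.

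Most gut mesenchymal transcription factors were higher in gut. Of 20 measured members 14 rose, 2 fell and 4 did not pass, against the 23.1% of all genes that rose, and the median log2 fold change was 2.34 against 0.13 over all tested genes. Shared members were Gata4, Barx1, Nkx2-3, Nkx3-2 and Nkx2-5.

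Gata4, a zinc finger factor of foregut mesenchyme and epithelium and of heart (ENSMUSG00000021944, mm39 chromosome 14, 63436371 to 63509141), had 2114, 2229 and 1795 signal in stomach and 418, 359, 646 and 522 in intestine. In kidney it was listed at 0 in all 3 libraries, and in bladder it had 16, 1 and 0. Every gut library lay above every urinary library, and the difference was 9.10 ± 0.52 on the log2(signal + 1) scale (SE, limma adjusted p = 3.9e-08). Barx1, a homeobox factor required for stomach patterning (ENSMUSG00000021381, chromosome 13, 48816474 to 48819983), had 1093, 905 and 959 in stomach and 350, 22, 212 and 330 in intestine. Its urinary libraries held 1, 0 and 0 in kidney and 0, 6 and 0 in bladder, again with no overlap, a difference of 7.97 ± 0.67. Within intestine Barx1 was lowest in intestine 2, as were the summed gastric epithelial markers, at 6836, 1194, 3423 and 4565 in library order. The part of gastric transcripts in its intestine values was not tested. Nkx2-3, a homeobox factor of gut and spleen mesenchyme (ENSMUSG00000044220, chromosome 19, 43600764 to 43604331), had the opposite order within gut. It had 75, 76 and 103 in stomach and 1758, 1710, 1612 and 2144 in intestine, against 0, 7 and 28 in kidney and 2, 0 and 0 in bladder. Gata4 and Barx1 were thus strongest in stomach and Nkx2-3 in intestine, while no urinary library held more than 28 of any of them. All 3 were near the read ceiling described with the contractile genes.

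Other members of the group were not shared because kidney and bladder differed. Foxf2, a forkhead factor of gut mesenchyme, was at 761 to 1601 in gut, against 0, 0 and 2 in kidney but 626, 1325 and 413 in bladder. Its relative Foxf1 was at 1238 to 1988 in gut, 38 to 87 in kidney and 2865 to 3412 in bladder. Foxf1 was near the read ceiling, and its rebuilt reads, 2277 to 3855 in gut and 2212 to 3690 in bladder, overlapped. Its call ended in a fit of gut against urinary libraries without tissue groups, where each library had equal weight (limma adjusted p = 0.21). That fit, called equal weight per library below, counts differences between the tissues of a side as spread. Pitx1, a homeobox factor of hindlimb and pituitary, was likewise at 0 in all kidney libraries and at 1013 to 1243 in bladder, against 778 to 910 in stomach and 89 to 230 in intestine. For these 3 genes the signal of every gut library was above that of every kidney library, but not above that of every bladder library. Hand1, a basic helix-loop-helix factor, was found in intestine at 30 to 89 and at 0 or 1 in all other libraries of the comparison. With equal weight per library 7 of the 20 members rose, and 8 among genes under the read ceiling.

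Promoter windows of the shared factors with the largest changes are given from RefSeq (GRCm38.p6), 250 bases before to 50 after the annotated start, to show the sequences whose genes were near 0 on opposite sides. Capitals mark 3 motifs on either strand, the GC box GGGCGG, the TATA box TATAAA and the GATA core GATAA, read also as their reverse complements. These motifs were chosen after the values were seen. Both Barx1 and Nkx2-3 lie on the plus strand, at chr13:48662786-48663085 and chr19:43612075-43612374. The 3 HoxA genes lie on the minus strand, Hoxa10 at chr6:52240805-52241104, Hoxa11 at chr6:52245761-52246060 and Hoxa9 at chr6:52227321-52227620.
Barx1: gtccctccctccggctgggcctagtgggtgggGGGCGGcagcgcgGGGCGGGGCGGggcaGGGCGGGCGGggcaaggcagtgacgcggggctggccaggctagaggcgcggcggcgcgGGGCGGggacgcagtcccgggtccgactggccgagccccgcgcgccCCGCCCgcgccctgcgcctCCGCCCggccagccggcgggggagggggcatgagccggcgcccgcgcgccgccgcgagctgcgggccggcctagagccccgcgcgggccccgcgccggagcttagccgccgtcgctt
Nkx2-3: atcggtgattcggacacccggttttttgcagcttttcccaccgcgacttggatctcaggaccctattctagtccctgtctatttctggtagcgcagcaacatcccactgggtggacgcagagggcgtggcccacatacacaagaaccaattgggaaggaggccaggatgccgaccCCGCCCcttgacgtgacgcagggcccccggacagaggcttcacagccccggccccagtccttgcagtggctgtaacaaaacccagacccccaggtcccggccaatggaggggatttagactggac
Hoxa10: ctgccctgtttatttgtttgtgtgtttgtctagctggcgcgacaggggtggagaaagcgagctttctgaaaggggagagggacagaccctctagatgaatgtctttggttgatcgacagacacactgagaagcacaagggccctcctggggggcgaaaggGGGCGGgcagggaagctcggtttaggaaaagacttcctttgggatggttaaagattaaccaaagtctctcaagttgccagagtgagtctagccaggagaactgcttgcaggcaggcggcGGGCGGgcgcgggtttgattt
Hoxa11: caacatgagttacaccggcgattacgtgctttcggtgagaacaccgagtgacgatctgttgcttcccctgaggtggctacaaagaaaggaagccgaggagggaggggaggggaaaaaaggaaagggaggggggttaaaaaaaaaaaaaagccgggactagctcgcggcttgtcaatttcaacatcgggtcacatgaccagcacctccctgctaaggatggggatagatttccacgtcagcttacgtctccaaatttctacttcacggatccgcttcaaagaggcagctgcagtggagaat
Hoxa9: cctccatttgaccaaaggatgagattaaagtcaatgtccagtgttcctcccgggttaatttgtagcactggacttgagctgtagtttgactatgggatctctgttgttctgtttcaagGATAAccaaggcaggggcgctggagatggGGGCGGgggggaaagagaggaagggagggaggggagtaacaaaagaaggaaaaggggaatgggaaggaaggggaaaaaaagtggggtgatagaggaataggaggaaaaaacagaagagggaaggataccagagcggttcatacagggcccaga
The GC box GGGCGG matched 8 times in Barx1, 2 times in Hoxa10 and once each in Nkx2-3 and Hoxa9, and it occurred in 35.7% of the 32851 promoter windows of the table. TATAAA, in 13.6% of windows, matched none of these 5. GATAA, the core read by GATA factors and found in 25.4% of windows, matched once in Hoxa9. RefSeq lists a further Hoxa10 start, at chr6:52234890-52235189 on the minus strand and not printed here, whose window held 1 TATAAA, 1 GATAA, no GC box and 21 CG dinucleotides. The Barx1 window held 50 CG dinucleotides, Nkx2-3 and Hoxa11 15 each, the printed Hoxa10 window 12 and Hoxa9 4, against a median of 7 over all windows. A match describes letters only and is not evidence of a bound site.

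Posterior Hox genes were the reverse of the gut factors. Of 12 measured members 11 fell in gut and none rose, against 14.8% of all genes that fell, and 8 were shared. Their summed signal was 20 to 28 in stomach and 9 to 24 in intestine, against 2557 to 3426 in kidney and 2172 to 2755 in bladder. The member without a call was Hoxb9, at 1 to 7 in gut, 21 to 122 in kidney and 0 to 8 in bladder (limma adjusted p = 0.078).

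Hoxa10, a regulator of kidney, uterine and limb patterning (ENSMUSG00000000938, mm39 chromosome 6, 52208177 to 52217834), was at 0 in 6 of the 7 gut libraries and at 6 in intestine 2. It had 831, 1115 and 838 in kidney and 1089, 1092 and 856 in bladder, and so was near equal in both urinary tissues. Hoxa11, needed with its paralogues for the ureteric bud (ENSMUSG00000038210, chromosome 6, 52219086 to 52222790), was at 0 in all 7 gut libraries. Against these it had 112, 181 and 134 in kidney and 839, 626 and 381 in bladder. Gut was at least 189.8-fold below the mean of the kidney and bladder means. The floor was set at 3 reads in the gut library where a read is worth most, and the bound against kidney alone is smaller. Hoxa9 was at 0, 5 and 2 in stomach and 0, 6, 0 and 0 in intestine, against 532, 575 and 463 in kidney and 119, 89 and 343 in bladder. Hoxa9, Hoxa10 and Hoxa11 thus kept a level in every urinary library and none above 6 in gut, as the plot of regional factors shows. Hoxa11os, the RNA antisense to Hoxa11, was also at 0 in gut and at 34 to 45 in kidney and 211 to 311 in bladder. Whether reads were counted by strand is not given in the sources used here, so Hoxa11 and Hoxa11os cannot be told apart where they overlap.

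**Figure D2:**
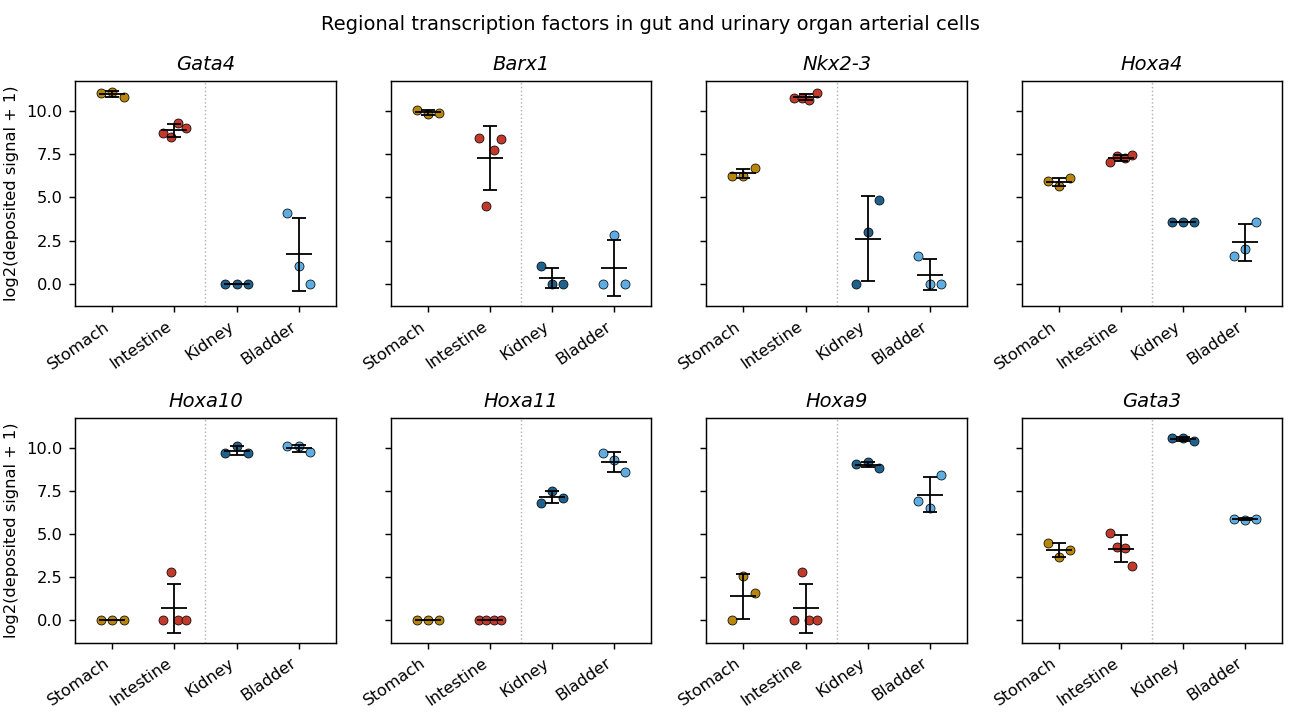
Points are libraries, with log2(deposited signal + 1) on the vertical axis and horizontal marks and bars for the mean and SD of each tissue (n = 3, or 4 for intestine); the dotted line parts gut on the left from urinary organs on the right. Gata4, Barx1, Nkx2-3 and Hoxa4 lie higher in every gut library than in any urinary library, and Hoxa10, Hoxa11, Hoxa9 and Gata3 lower.

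Most HoxC and HoxD members were higher in kidney than in bladder. Hoxc10, of the hindlimb and lumbar level, was at 0 in all gut libraries, against 213 to 356 in kidney and 23 to 60 in bladder. Gut was at least 80.7-fold below the mean of the kidney and bladder means. Hoxc9 was also at 0 throughout gut, against 138 to 232 in kidney and 12 to 27 in bladder. Its bound, taken in the same way, was 48.3-fold. For both genes the bound against bladder alone is smaller. Hoxd11 was at 0 in gut, at 65 to 108 in kidney and at 9 to 23 in bladder. The most distal genes did not follow this order: Hoxa13 was at 323 to 628 and Hoxd13 at 57 to 85 in bladder, while kidney held 9 at most and gut 0. Hoxc10 overlaps the annotated span of Hoxc5, and Hoxc9 and Hoxc8 lie within it, so reads of these genes are uncertain. In aorta, heart and lung, Hoxa10 averaged at most 3.0.

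Anterior Hox genes leaned the other way, with 11 of 19 measured members higher in gut and 4 lower, against 23.1% and 14.8% of all genes, and a median log2 fold change of 1.75. Only Hoxa2 and Hoxa4 were shared. Hoxa4 was at 50 to 68 in stomach and 132 to 173 in intestine, against 11 in each kidney library and 2 to 11 in bladder, without overlap (3.62 ± 0.33, limma adjusted p = 2.6e-06). The neighbours Hoxb4 and Hoxb5 rested on bladder: Hoxb5 was at 77 to 108 in stomach, 158 to 215 in intestine and 76 to 102 in kidney, but at 0 to 2 in bladder. The 4 lower members were Hoxc8, Hoxa7, Hoxd8 and Hoxd4. Hoxc8 was at 0 to 2 in stomach and 3 to 15 in intestine, against 85 to 168 in kidney and 5 to 30 in bladder. Hoxa4 overlaps Hoxa3 in the annotation, so its reads are uncertain, and with equal weight per library 7 anterior members rose. Among partner proteins of Hox factors, Pbx3 was at 168 to 278 in gut and 27 to 142 in urinary libraries (1.61 ± 0.30), while Meis2 fell by 0.95. The rise of Pbx2 (0.52 ± 0.18) ended without any 1 of the 3 stomach libraries.

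Urogenital mesenchyme factors fell in 10 and rose in 2 of 23 measured members, against 14.8% and 23.1% of all genes. The shared genes were Gata3, Wt1 and Tbx18. Gata3, a zinc finger factor of ureteric bud and mesangial cells (ENSMUSG00000015619, chromosome 2, 9861889 to 9894845), was at 12 to 21 in stomach and 8 to 32 in intestine. It had 1531, 1511 and 1346 in kidney and 58, 56 and 59 in bladder, so the kidney level was far above the bladder level and both were above gut (-4.07 ± 0.29, limma adjusted p = 2.9e-07). Wt1, a factor of nephron progenitors and mesothelium, was at 1 to 10 in gut, 43 to 163 in kidney and 51 to 102 in bladder. Tbx18, a T-box factor of ureter mesenchyme, was at 0 to 3 in gut and 25 to 43 in 5 urinary libraries, but at 2 in kidney 2, so its libraries overlapped. Tbx20, a T-box factor known from heart, was at 117 to 164 in bladder and at most 1 elsewhere in the comparison, and Foxd1, of renal stroma, was at 97 to 341 in kidney and at most 8 elsewhere. Sall1, known for kidney development, went against the name of the list and was higher in gut, at 332 to 369 in stomach and 43 to 123 in intestine against 54 to 120 in kidney and 0 to 2 in bladder. With equal weight per library 5 members fell.

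Among shared genes with a mean signal of at least 50 on both sides, 105 were higher and 57 lower in gut. The 10 largest of these rises include a matrix gene, Hmcn2, a hormone precursor, Agt, and a growth factor, Nrg1. Hmcn2, hemicentin 2, a very large matrix protein (ENSMUSG00000055632, chromosome 2, 31204427 to 31350750), had 697, 722 and 986 in stomach and 4080, 4744, 4030 and 4231 in intestine. The urinary libraries had 48, 32 and 76 in kidney and 102, 56 and 87 in bladder. Every gut library was above all urinary libraries, intestine most of all (4.86 ± 0.20, limma adjusted p = 3.2e-09). Agt, angiotensinogen, the precursor of angiotensin peptides (ENSMUSG00000031980, chromosome 8, 125283273 to 125296445), had 1542, 1403 and 1264 in stomach and 1394, 1355, 1302 and 1732 in intestine. It had 49, 142 and 73 in kidney and 80, 88 and 17 in bladder, a level that was even across gut and low in all urinary libraries (4.47 ± 0.35, limma adjusted p = 6.0e-07). Both Hmcn2 and Agt were near the read ceiling described with the contractile genes. Rebuilt reads of Agt were 2317 to 3137 in gut and 13 to 215 in urinary libraries. The part of the ceiling in its even gut level was not tested. Nrg1, neuregulin 1, a ligand of ErbB receptors, was at 363 to 492 in gut, against 5 to 42 in kidney and 56 to 137 in bladder. The other genes of this kind were Elf3, Ces1d, Shroom3, Abcc3, B4galnt1, Serinc2 and Prom1. Elf3, an epithelial factor, is among the pan-epithelial markers, whose summed signal was 6425 to 12655 in gut against 546 to 4279 in urinary libraries. The part of epithelial transcripts in these genes was not tested.

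The largest falls among genes present on both sides were in Sfrp4 and Dkk2, secreted modulators of Wnt signalling. Dkk2, a Dickkopf protein that binds Wnt co-receptors (ENSMUSG00000028031, chromosome 3, 131791053 to 131886065), had 115, 132 and 139 in stomach and 111, 63, 135 and 68 in intestine. It had 1500, 1220 and 1321 in kidney and 1851, 3127 and 1312 in bladder, so the lowest urinary library was well above the highest gut library (-3.91 ± 0.22, limma adjusted p = 4.2e-08). In the other tissues Dkk2 averaged 0 in aorta, 9 in heart and 20.7 in lung. Sfrp4, a secreted Frizzled-related protein, was at 103 to 199 in stomach and 11 to 46 in intestine, against 493 to 1305 in kidney and 1041 to 2737 in bladder (-4.46 ± 0.36). Gdf10, a BMP-family ligand, was at 58 to 102 in stomach and 315 to 556 in intestine, against 1882 to 2393 in kidney and 972 to 1335 in bladder (-3.17 ± 0.18). Pdgfd, a ligand of the PDGF beta receptor of mural cells, was at 324 to 571 in gut and 1024 to 2778 in urinary libraries (-1.95 ± 0.15, limma adjusted p = 6.2e-07). In signal none of these 4 genes had overlapping libraries. All 4 were near the read ceiling; in rebuilt reads Dkk2 (118 to 320 in gut, 978 to 3289 in urinary libraries) and Sfrp4 (25 to 429 and 992 to 2618) stayed apart, whereas Gdf10 (87 to 1172 and 984 to 4127) and Pdgfd (561 to 1151 and 903 to 3425) overlapped. Foxc1, a forkhead factor of vascular development, was at 77 to 218 in gut, 1524 to 1831 in kidney and 270 to 881 in bladder. Prdm6, a histone methyltransferase-family repressor active in smooth muscle, was at 9 to 137 in gut, 203 to 488 in kidney and 531 to 1406 in bladder. The 10 largest shared falls of all also held Cntn4 and Cntn6. Cntn4, a contactin, an adhesion protein known from neurons, was at 0 to 3 in gut, 8 to 26 in kidney and 512 to 1597 in bladder. Its relative Cntn6 was at 0 to 5 in gut, 36 to 92 in kidney and 212 to 386 in bladder. Pcolce2 and Cpxm1, which act on or near collagen in the matrix, fell by 3.77 ± 0.35 and 2.97 ± 0.18.

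Of 26 measured genes of vasoactive peptides and their receptors 9 were higher and 9 lower in gut, against 23.1% and 14.8% of all genes. Under equal weight per library 3 were higher and 4 lower. Npy1r, the neuropeptide Y receptor through which sympathetic nerves constrict arteries (ENSMUSG00000036437, chromosome 8, 67149844 to 67159444), had 83, 118 and 90 in stomach and 300, 231, 356 and 239 in intestine. It had 1804, 1468 and 1753 in kidney and 1643, 1127 and 1405 in bladder, with a wide gap between the sides (-3.21 ± 0.15, limma adjusted p = 7.9e-09). Its rebuilt reads, 125 to 844 in gut and 1047 to 3956 in urinary libraries, did not overlap either. Of the other members Tacr2 alone was shared. Tacr2, the neurokinin A receptor of gut muscle, was at 49 to 80 in stomach and 6 to 13 in intestine, against 0 in all urinary libraries but bladder 1, which had 1. Bdkrb2, the bradykinin receptor, was at 342 to 379 in stomach and 1370 to 1537 in intestine, against 2 to 11 in kidney and 318 to 1123 in bladder, and its call ended with equal weight per library (limma adjusted p = 0.059). Agtr1a, the main angiotensin receptor, was lower in gut through kidney, at 45 to 84 in stomach and 295 to 482 in intestine against 1057 to 1468 in kidney and 93 to 234 in bladder. Avpr1a, the vasopressin receptor, was lower through bladder, at 115 to 424 in gut and 99 to 170 in kidney against 1254 to 2824 in bladder. The endothelin receptors Ednra and Ednrb had log2 fold changes of 0.53 ± 0.27 and 0.62 ± 0.28 and did not pass.

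Receptors for small mediators and their effectors rose in 13 and fell in 5 of 37 measured members, against 23.1% and 14.8% of all genes, so that the falls were near the background, and 6 rises and 1 fall were shared. Without bladder 3, 8 members fell. P2ry1, an ADP receptor (ENSMUSG00000027765, chromosome 3, 60910216 to 60916403), had 234, 231 and 303 in stomach and 764, 774, 737 and 535 in intestine. It had 21, 50 and 7 in kidney and 47, 47 and 109 in bladder, all below the gut libraries (3.54 ± 0.37, limma adjusted p = 7.6e-06). P2ry14, the UDP-glucose receptor, was at 691 to 753 in stomach and 1335 to 1621 in intestine, against 145 to 199 in kidney and 125 to 282 in bladder. P2ry2, the UTP receptor, was the shared fall, at 22 to 63 in gut against 112 to 251 in urinary libraries. The muscarinic receptors Chrm2 and Chrm1, the serotonin receptor Htr2b and the prostaglandin E receptor Ptger1 were the other shared rises. Chrm2, the main muscarinic receptor of visceral muscle by abundance, was at 57 to 75 in stomach and 58 to 226 in intestine, against 0 or 1 in kidney and 1 to 9 in bladder. Hrh1, a histamine receptor, was an intestine gene, at 229 to 342 there against 11 to 17 in stomach and at most 29 in urinary libraries. S1pr3, a sphingosine phosphate receptor, fell by 1.47 ± 0.36, a call that ended with equal weight per library (limma adjusted p = 0.10). Adrenergic receptors were called in 2 of 9 members, both higher in gut, a share near that of all genes, and both calls ended with equal weight per library (Adrb1 and Adra2a, limma adjusted p = 0.21 and 0.062).

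**Figure D3:**
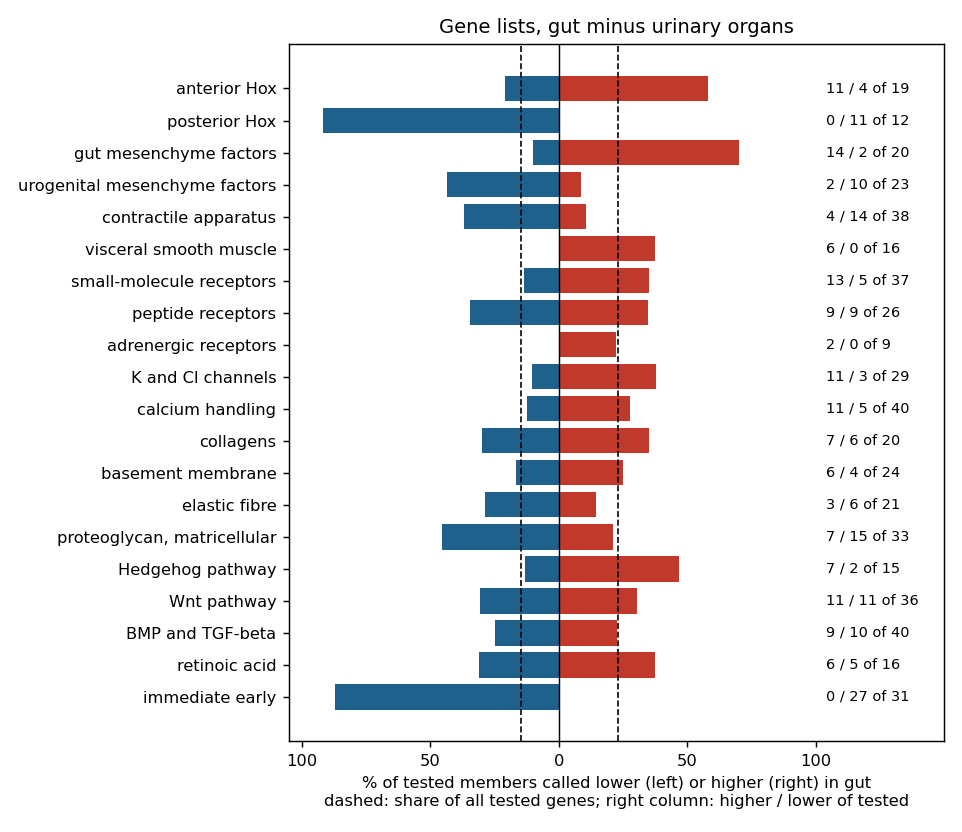
Bars give the percentage of tested members of each gene list called higher in gut (to the right) or lower in gut (to the left) in limma, with counts at the right edge; dashed lines are the shares of all 16079 tested genes, 23.1% higher and 14.8% lower. Posterior Hox and immediate early genes had no member higher, and gut mesenchyme factors had the largest share higher of the lists drawn.

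Visceral smooth muscle markers rose in 6 of 16 measured members and fell in none, against 23.1% and 14.8% of all genes. Their median was 0.53, and 2 rose with equal weight per library. Besides Chrm2 and Tacr2 the risers were Chrm3, Npnt, Hhip and Actg2. Actg2, the actin of enteric muscle, was at 1060 to 1646 in gut, 235 to 428 in kidney and 938 to 1952 in bladder. Gut and bladder thus overlapped in signal, and its call ended with equal weight per library (limma adjusted p = 0.10). It was near the read ceiling, and its rebuilt reads, 2474 to 2563 in gut and 699 to 1976 in bladder, did not overlap. Potassium and chloride channels rose in 11 and fell in 3 of 29, against the 23.1% and 14.8% of all genes, and 6 fell without bladder 3 and 7 without kidney 2 and bladder 3. Shared members were Cftr, the chloride channel mutated in cystic fibrosis, at 102 to 806 in gut and 0 or 1 in urinary libraries; Lrrc26, an accessory subunit of large-conductance potassium channels, at 39 to 228 and 0 to 14; and Kcnn4, a calcium-activated potassium channel, at 255 to 635 and 10 to 164. All 3 are also known from secretory epithelium, whose markers moved with them, and the part of epithelial transcripts was not tested. Of 40 calcium handling genes 11 rose and 5 fell, near the shares of all genes, with 9 falls without bladder 3. Cacna2d3, an auxiliary subunit of calcium channels, was shared at 26 to 48 in gut and 0 to 7 in urinary libraries. Pln, phospholamban, which restrains the sarcoplasmic calcium pump, was at 33 to 55 in stomach and 88 to 175 in intestine, against 533 to 729 in kidney and 51 to 304 in bladder. The pump Atp2a2 itself did not pass (-0.09 ± 0.24).

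Matrix genes moved in both directions. Among 20 collagens 7 rose and 6 fell, among 24 basement membrane genes 6 rose and 4 fell, and among 21 elastic fibre genes 3 rose and 6 fell. Of all genes 23.1% rose and 14.8% fell, and the basement membrane counts were near these shares. Near the read ceiling were 4 rises and 4 falls of collagens, 3 and 1 of basement membrane genes and 0 and 6 of elastic fibre genes. Of all genes near the ceiling 20.0% rose and 31.6% fell. Col6a4, a chain of collagen VI, was the shared collagen, at 419 to 621 in stomach and 1016 to 1705 in intestine, against 1 to 17 in kidney and 9 to 80 in bladder (5.81 ± 0.52, limma adjusted p = 2.2e-06). Fbn2, fibrillin 2 of developing microfibrils, was the shared elastic fibre gene, at 93 to 375 in gut against 9 to 54 in urinary libraries. Col11a1, a minor fibrillar collagen of cartilage, was at 0 to 19 in gut and 471 to 1777 in bladder, while kidney had 10, 7 and 166. Col4a3 and Col4a4, the collagen IV chains of the glomerular membrane, both fell, Col4a3 by 2.92 ± 0.41 with 23 to 64 in gut against 624 to 818 in kidney and 48 to 311 in bladder. The common chains Col4a1 and Col4a2 did not pass. Proteoglycan and matricellular genes fell in 15 and rose in 7 of 33, but 24 of the 33 were near the read ceiling, and among genes under it 1 fell. The shared falls were the leucine-rich proteoglycans Fmod, at 124 to 382 in gut and 584 to 1968 in urinary libraries, and Omd, at 12 to 24 and 78 to 268.

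Signalling pathways showed mixed movement. Hedgehog genes rose in 7 and fell in 2 of 15, where 23.1% of all genes rose and 14.8% fell. Ihh, a Hedgehog ligand of gut epithelium, was at 578 to 650 in stomach and 67 to 140 in intestine, against 53 to 166 in kidney and 0 to 9 in bladder, and the targets Ptch1, Gli1 and Hhip rose by 1.16, 1.03 and 1.09. No Hedgehog gene was shared, and with equal weight per library 1 member rose. Of 36 Wnt pathway genes 11 rose and 11 fell, and 1 of the rises and 8 of the falls were near the read ceiling. Of all genes near the ceiling 20.0% rose and 31.6% fell. Wnt5a, a non-canonical ligand of gut mesenchyme, was the shared rise, at 566 to 771 in stomach and 767 to 1357 in intestine, against 157 to 255 in kidney and 110 to 262 in bladder (2.16 ± 0.22, limma adjusted p = 6.9e-06). Wnt2 was a bladder gene, at 1742 to 2515 there against 22 at most in every other library of the comparison. Sfrp2 was at 638 to 1042 in stomach, 2 to 10 in intestine and 770 to 1755 in urinary libraries, so stomach overlapped the urinary libraries. With equal weight per library 6 Wnt genes rose and 7 fell. Of 40 BMP and TGF-beta genes 9 rose, a share near that of all genes, and 10 fell, against 2 and 6 with equal weight per library. Near the ceiling were 4 of the 9 rises and 7 of the 10 falls. Grem1, a secreted BMP antagonist of gut mesenchyme (ENSMUSG00000074934, chromosome 2, 113576509 to 113588991), had 187, 90 and 214 in stomach and 414, 269, 317 and 396 in intestine. It had 2, 0 and 5 in kidney and 0, 8 and 0 in bladder, well under every gut library (6.63 ± 0.57 on the log2(signal + 1) scale, limma adjusted p = 1.4e-06). Of 16 retinoic acid genes 6 rose and 5 fell. Among the falls were the binding proteins Crabp2, at 0 to 5 in gut and 2 to 303 in urinary libraries, and Rbp4, at 303 to 610 and 249 to 1745. The enzymes Aldh1a1, Aldh1a3 and Rdh10 were higher in gut by 1.19 to 1.30, but each of these calls ended with equal weight per library (limma adjusted p = 0.078, 0.26 and 0.093).

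Several lists had similar numbers of rises and falls, not far from the shares of all genes, 23.1% higher and 14.8% lower. Of 37 interferon and antigen processing genes 5 rose and 5 fell, of 20 Notch genes 3 rose and 3 fell, of 36 axon guidance genes 10 rose and 8 fell, and of 29 growth factor genes 6 rose and 6 fell. Circadian clock genes stood apart from these shares, as 6 of 19 fell and none rose. Of these Bhlhe41 and Nfil3, repressors of the clock circuit, were shared. Nfil3 was at 190 to 341 in gut, against 507 to 638 in kidney and 547 to 1775 in bladder (-1.57 ± 0.24). The core clock genes Arntl and Per2 did not pass (-0.19 ± 0.16 and -0.11 ± 0.42).

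Many contractile genes had read numbers near a limit. Of 38 measured members 14 fell and 4 rose, and 27 were near a read ceiling, defined as 0.5 rebuilt reads per exonic base in any of the 13 libraries. Over all genes near the ceiling 31.6% fell and 20.0% rose, against 11.5% and 23.9% of genes under it. The log2 worth of 1 read in signal was lower in gut, by a difference of -0.71, and its part in these calls was not tested. Acta2 had 1992, 1697 and 1459 signal in stomach and 1485, 1376, 1343 and 1782 in intestine, against 1662, 2237 and 3440 in kidney and 2128, 2771 and 2582 in bladder (-0.60 ± 0.16, limma adjusted p = 0.010, and 0.263 with all 22 libraries in the fit). Its rebuilt reads were 2994 to 3186 in gut and 1925 to 3645 in urinary libraries, and these overlapped. Myh11, the smooth muscle myosin heavy chain, was at 5302 to 6905 in gut and 1379 to 13518 in urinary libraries and did not pass (0.05 ± 0.33). Tagln also did not pass (-0.29 ± 0.17). Among genes under the ceiling 3 contractile members fell. The 4 rises became 10 without bladder 1 and 2 without stomach 1, stomach 3, intestine 2 or bladder 3.

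**Figure D4:**
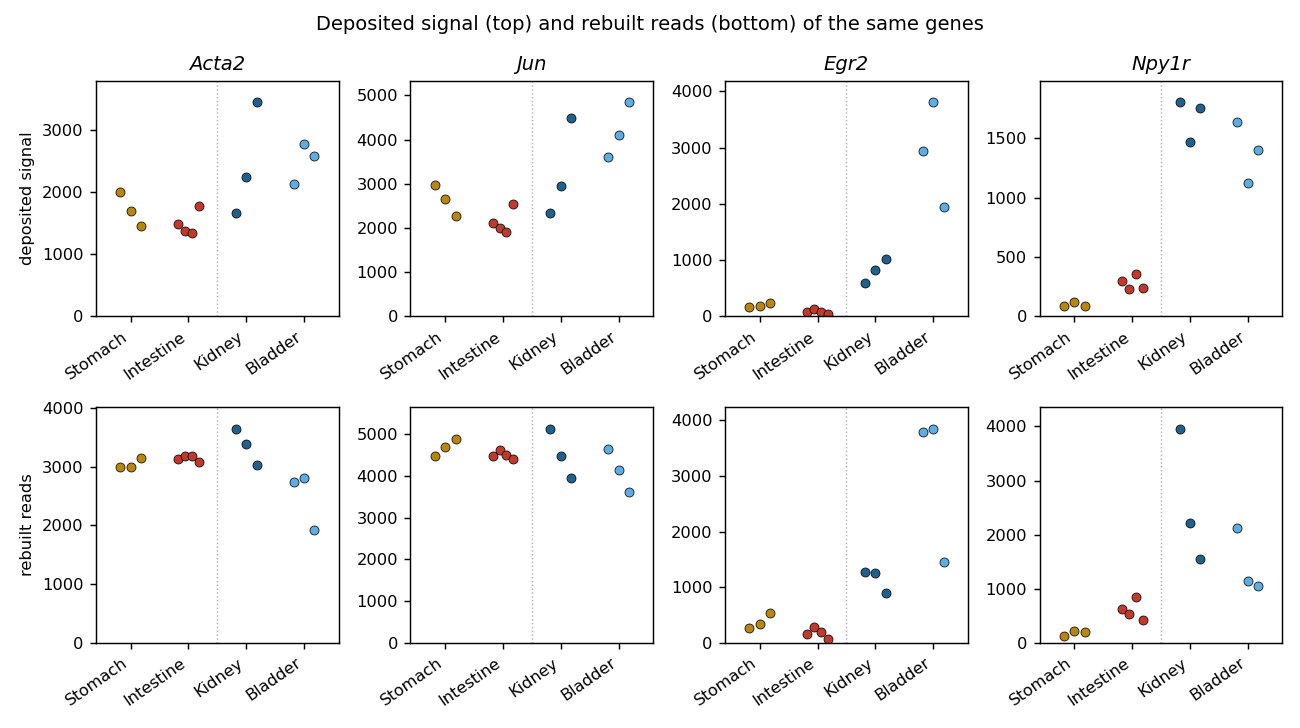
Upper panels give the deposited signal and lower panels the rebuilt reads of the same genes, with a point for each library and all axes from 0. The reads of Acta2 and Jun overlap between gut and urinary libraries although their signal was called lower in gut, whereas those of Egr2 and Npy1r do not overlap.

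Immediate early genes, which are transcribed within minutes of a stimulus, fell in 27 of 31 measured members and rose in none, with a median of -0.90. Of all genes 14.8% fell, and of all genes near the ceiling 31.6%. Here too 26 of the 31 members were near the ceiling. Among the few under it 4 fell, Nr4a3, Fosl1, Egr3 and Egr4, where 11.5% of all genes under the ceiling fell. Nr4a3, an orphan nuclear receptor (ENSMUSG00000028341, chromosome 4, 48045153 to 48086447), had 18, 16 and 19 in stomach and 12, 18, 3 and 13 in intestine. It had 417, 65 and 219 in kidney and 292, 442 and 138 in bladder, with no overlap (-3.94 ± 0.48, limma adjusted p = 3.4e-05). Egr2, a zinc finger factor, had 174, 189 and 245 in stomach, 76, 123, 80 and 38 in intestine, 584, 823 and 1018 in kidney and 2941, 3803 and 1945 in bladder. Its reads were 66 to 528 in gut and 898 to 3849 in urinary libraries, so the sides were apart on both scales. Jun, by contrast, fell by 0.61 in signal while its reads were 4409 to 4876 in gut and 3608 to 5129 in urinary libraries. The other shared members were Maff, Csrnp1, Atf3 and Nr4a1.

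Transcripts of some neighbouring cell types moved with the contrast. For the counts that follow, 23.1% of all tested genes were higher and 14.8% lower in gut. All 15 gastric epithelial markers and all 20 intestinal epithelial markers were higher in gut. The gastric genes Muc6, Gkn2 and Tff2 were at 0 to 5 in urinary libraries, whereas Atp4a, the gastric proton pump, was at 30 to 199 in kidney. Gastric markers summed to 19620 to 24952 in stomach and 1194 to 6836 in intestine, against 52 to 401 in kidney and 13 to 143 in bladder. Intestinal markers summed to 3505 to 4183 in stomach and 10109 to 12705 in intestine, against 119 to 334 in kidney and 89 to 225 in bladder. The 10 largest shared rises were in Gata4, in the gastric markers Muc6, Gkn2 and Tff2, and in Dmbt1, Lypd8, Chgb, Clca1, Pnliprp1 and Pnliprp2, which are on neither list. Dmbt1, a mucosal scavenger protein, was at 2350 to 4643 in gut and 0 to 4 in urinary libraries. Clca1, a goblet cell product, was at 0 in all urinary libraries, and the mean of its stomach and intestine means was at least 180.7-fold higher. In the opposite direction 15 of 18 nephron markers were lower in gut, at a sum of 756 to 1545 in gut against 10921 to 25673 in kidney and 470 to 771 in bladder, so the bladder sums were near those of gut, and 4 nephron markers were lower with equal weight per library. Slc34a1 of the proximal tubule was at 0 in all gut and bladder libraries. Urothelial markers rose in 4 and fell in 3 of 11, fibroblast markers fell in 9 and rose in 2 of 16, of which 15 were near the ceiling and none fell among genes under it, and immune markers fell in 6 and rose in 2 of 13. Enteric glial and neuronal markers summed to 1300 to 2802 in gut and 416 to 934 in urinary libraries, and of 12 measured members 4 rose and 1 fell. Ncam1, at 968 to 2267 in gut against 77 to 646 in urinary libraries, was shared. In these bulk samples fewer cells of a type and less RNA per cell cannot be told apart, and the part of these cells in other results was not tested.

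**Figure D5:**
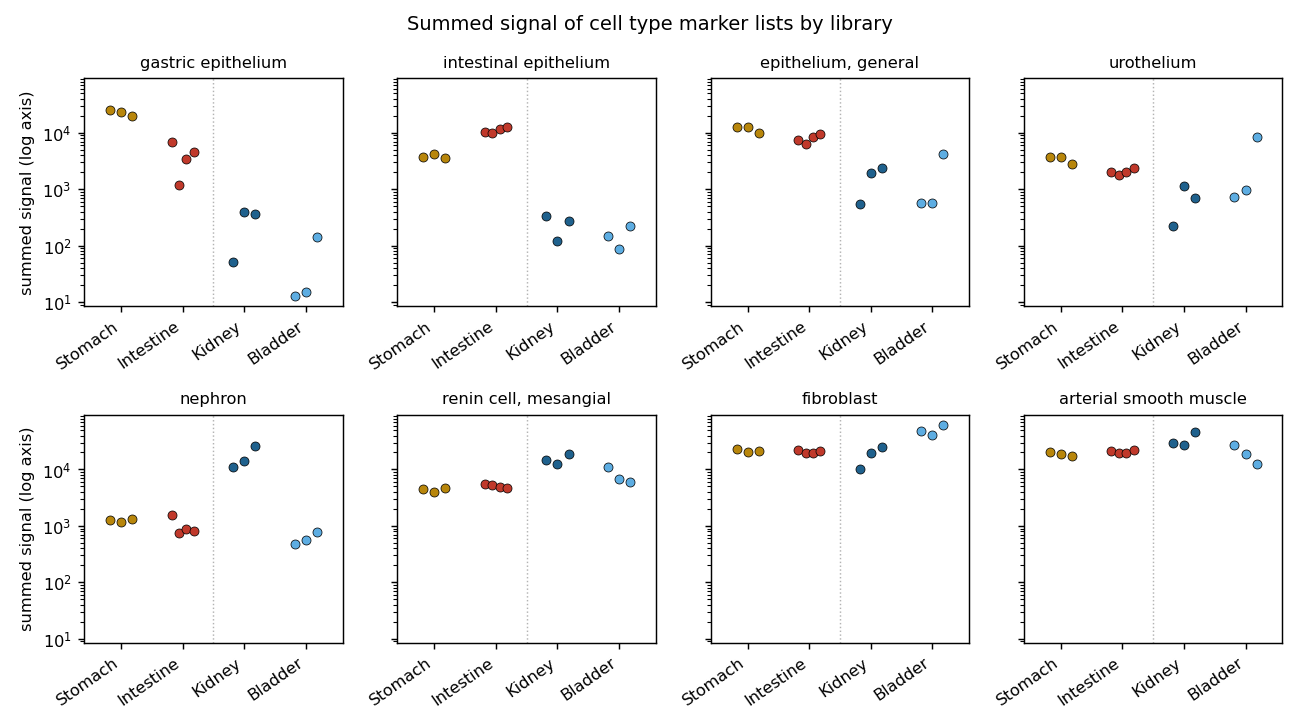
Each point is the summed deposited signal of a marker list in 1 library, on a logarithmic axis, with gut left of the dotted line and urinary organs right of it. Gastric and intestinal sums are high in all 7 gut libraries, the nephron sum in the 3 kidney libraries, and the urothelial sum is highest in 1 bladder library, at 8388.

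The tissues of a side were not alike. Stomach and intestine differed in 2212 genes (13.8%), and bladder and kidney in 4740 (29.5%). The urinary libraries were also more spread within a tissue: computed across genes, the median correlation between libraries of 1 tissue was 0.976 (stomach) and 0.969 (intestine), against 0.913 (kidney) and 0.885 (bladder). With limma array weights, which give spread libraries less say, the counts became 7340 for stomach against intestine and 3155 for bladder against kidney, so the order of these counts turned round. Of the 621 genes shared higher 154 also differed within gut, 103 of them higher in stomach, and of the 152 shared lower genes 53 also differed within the urinary organs, 35 of them higher in bladder. Set beside the other tissues without a test, 591 of the shared higher genes had a gut mean above the means of aorta, heart and lung, and 77 of the shared lower genes had a urinary mean above all of them. Gata4 averaged 997 in heart and 19.7 in lung, against 0 in aorta.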

How the data were processed

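Sorted arterial smooth muscle cells were profiled by RNA-seq, and 13 libraries of 4 tissues were used. The submitters' processing notes name, without role or order, the build mm39 and the tools featureCounts 2.0.4, STAR 2.7.10a, DESeq2 1.36.0, Trimmomatic 0.39 and Picard 3.0.0. The deposited table gives 1 whole-number signal per gene and library; from its values, these are gene counts scaled per library and rounded by the authors, and the scaling step itself is not given in the sources used here.

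The worth of 1 read in each library was found from the spacing of low values, and signal divided by it gave rebuilt reads, from 4389009 to 12708505 per library. Depth limits precision most in the libraries where a read is worth most, and floors of 3 reads cover counting error only. Genes with signal of at least 10 in at least 3 of the 13 libraries were kept, 16079 of 28099. limma 3.58.1 in R 4.3.3 was fitted to log2(signal + 1) with the 4 tissues as groups and a mean-variance trend, and p-values were adjusted by Benjamini-Hochberg over all tested genes. The fit was tested on simulated data. Exonic lengths for the read ceiling were found for 96.2% of genes. Symbols shared by several genes number 12.

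Members, lists, tests and alternatives were chosen with earlier results of these data known. The text names, in each direction, the 10 shared genes with the largest change among those at a mean signal of at least 50 on the higher side, and the 10 among those at 50 on both sides. It also names the members of each list with the largest change past the threshold or the highest signal, and Acta2, Cspg4, Myh11 and Tagln. Genes outside this rule, such as Pitx1, Agtr1a, Avpr1a, Pln and P2ry2, were named after their values were seen. Some genes that the rule takes are not reported here. Tables of promoter windows are from RefSeq, GRCm38.p6, a build other than that of the deposited coordinates, and were matched by symbol; Gata4 is named only. Alternatives were other pseudocounts, filters, scalings, weights and sets of libraries.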

Additional observations from a re-analysis of the deposited data

Results flagged for a closer look

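Dixon's ratio, the gap to the nearest value over the whole range, was sought in 54 groups of 4 intestine libraries, 1 per gene. Genes equal in all 4, such as Hoxa11 at 0, are among the 54 although they give no ratio. In 6 groups a library was far from the others, above the critical value for 4 samples. Chance flags about 1 in 20 groups of continuous values, and the cause was not tested. A ratio of 1.000 arises whenever all libraries but 1 are equal, so that rate does not apply to such groups. Hoxa10 (ratio 1.000) was at 6 in intestine 2 and at 0 in the other intestine libraries, and Hoxa9 (1.000) had the same values. Hoxd10 (1.000) was at 3 in intestine 3 and at 0 elsewhere in intestine. These signals are small beside the urinary levels of the same genes. Gdf10 (0.834) was at 556 in intestine 1 and 315 to 355 in the others, below the lowest urinary library at 972. Pcolce2 (0.895) was at 38 in intestine 1 and 19 to 21 in the others. Tagln (0.843) was at 203 in intestine 4 and 152 to 160 in the others.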

How the results depend on the processing

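None of the 232 genes named by the rule changed direction where the main run or the alternative gave a call. Changes of sign without a call in either run were not counted, and genes named outside the rule were not followed. Array weights turned round the order of the counts within the sides. With all 22 libraries in the fit 1882 genes were higher and 1348 lower in gut, 378 and 80 were shared, and stomach differed from intestine in 1050 and bladder from kidney in 2321. With each library weighted equally and no tissue groups 2092 were higher and 1215 lower, and that fit gives no shared count. In it, differences between the tissues of a side counted as spread. Among genes under the read ceiling 1497 were lower and 100 shared lower. With no minimum fold change 248 were shared lower. Array weights gave 7340 differences between stomach and intestine and 3155 between bladder and kidney. The cause of these shifts was not tested, except that fewer genes were tested under the ceiling.

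Leaving out 1 library at a time gave 3051 to 4586 higher, 2005 to 2646 lower, 510 to 726 shared higher and 113 to 185 shared lower. Stomach against intestine then ranged from 1400 (without stomach 2) to 2744, with 1463 without stomach 1, and bladder against kidney from 3748 to 6292. Without kidney 2 and bladder 3 together the counts were 3843, 2551, 680 and 196. For these 232 genes, 5226 of 5430 values under alternatives kept their side of the threshold, 181 lost their call and 23 gained one. Of those lost, 60 were under equal weight per library and 41 with all 22 libraries.

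The replicate numbers were not taken as pairs: over 18 same-number pairs the correlation of deviations ran from -0.11 to 0.273, above 0.1 in 3, and 4 of 13 libraries correlated best with their own number. A replicate block gave 3403 genes higher and 2199 lower, 532 and 122 of them shared. A count test on whole reads was not run. Depth limits genes at a few reads, most in the libraries where 1 read is worth up to 1.341 signal.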
